A study of Mus musculus with 21 samples.

Results

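The 10 genes described here belong to the unfolded protein response of the endoplasmic reticulum (ER): Hspa5, Hsp90b1, Xbp1, Dnajb9, Herpud1, Pdia4, Sdf2l1, Calr, Creld2 and Manf. They were taken by symbol from the 48474 rows of a count table, as known targets of the transcription factors ATF6 and XBP1 or as chaperones of the ER. Each symbol had a row of its own, and all 10 passed the filter on low counts, as did 18248 rows in all.

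The table held bulk RNA-seq counts from 21 mice, 10 rNLS8 mice (labelled TG) and 11 littermates (labelled WT), with no sex given. The sample labels name the tissue as neocortex and the methods of the study name brain cortex, while a figure legend names hippocampus for a cohort with these group sizes. rNLS8 mice are bigenic: a NEFH-tTA transgene drives tetO-hTDP-43ΔNLS, a human TDP-43 without its nuclear localization signal, almost only in neurons and only once doxycycline is withdrawn. The WT littermates were monogenic, so they may carry either transgene alone, and both lines had been backcrossed to C57BL/6J. All mice were injected at 17 to 19 weeks of age into the cerebral ventricles with an antisense oligonucleotide that has no target (350 µg in a volume of 10 µL), so none was untreated. All were fed doxycycline (200 mg/kg of diet) until 2 weeks after that injection, and tissue was collected after 3 further weeks on chow without the drug. The mice formed 2 cohorts, called batches here: batch A with 4 WT and 3 rNLS8 mice, and batch B with 7 WT and 7 rNLS8 mice.

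Proteins that enter the secretory pathway fold in the ER with the help of chaperones and of enzymes that form disulfide bonds. When unfolded proteins accumulate there, the membrane sensors IRE1, PERK and ATF6 are activated. IRE1 splices the Xbp1 mRNA and ATF6 is cut in the Golgi, and the resulting transcription factors raise chaperone and degradation genes, while PERK phosphorylates the translation factor eIF2α and thereby favours translation of ATF4. The counts are per gene, so they show neither the spliced share of Xbp1 mRNA nor any protein.

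Each library held between 20700912 and 22263809 counts. Levels are given as normalized counts, that is counts scaled by the trimmed mean of M-values (TMM) to the mean library. Differences are log2 fold changes of rNLS8 over WT from a count model with batch as covariate. A gene counts as changed at an adjusted p under 0.05. Tardbp, the endogenous gene of TDP-43, was checked first: its row had a mean of 2574 ± 207 (SD) in the 11 WT mice and of 4109 ± 951 in the 10 others. The difference on the log2 scale was 0.62 ± 0.07 (SE, edgeR adjusted p = 1.50e-07). The row was above every WT mouse in 9 of 10 rNLS8 mice, whereas the library labelled rNLS8 mouse 9 (batch A), at 2363, lay within the WT range of 2253 to 2827. In batch A the mean was 2371 in WT and 2786 in rNLS8 mice, and in batch B 2691 and 4676. The table has a further row for Tardbp, with a log2 fold change of 0.55 ± 0.07 (SE, edgeR adjusted p = 1.85e-06). In that row 9 rNLS8 mice were above every WT mouse and 1 was below every WT mouse. Whether reads of the human transgene were counted in either row was not tested. Of the markers of excitatory neurons, Slc17a7, a vesicular glutamate transporter, had 679735 counts over all mice and Tbr1, a cortical transcription factor, had 53705. Of 6 tested markers of neighbouring regions, such as striatum and dentate gyrus, 1 was lower and none higher, beside 21.7% and 23% of all rows. How much tissue of such regions each library held was not tested.

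The response did not move as a block. Xbp1, the transcription factor, Herpud1, a component of ER-associated degradation, and Dnajb9, a co-chaperone, rose in rNLS8 mice. Hspa5 and Hsp90b1, both abundant ER chaperones, and Creld2, a stress-inducible redox protein, fell. Of these, Hspa5 passed only narrowly and Hsp90b1 not under every scaling or without batch in the model. Calr, an ER chaperone that was more abundant still, did not pass the test, nor did Pdia4, Sdf2l1 and Manf. All differences were small: the log2 fold changes ran from -0.36 for Creld2 to 0.43 for Herpud1. In all, 6 of the 10 genes were called, beside 44.7% of all 18248 rows tested. Of these, 3 were higher, beside 23% of all rows, and 3 were lower, beside 21.7%. With so large a background, the number called is not in itself a result about these genes. The median absolute log2 fold change was 0.14 over the 10 genes and 0.18 over all rows. None of the 10 exceeded an absolute log2 fold change of 0.5, which 11.6% of all rows did.

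**Figure D1:**
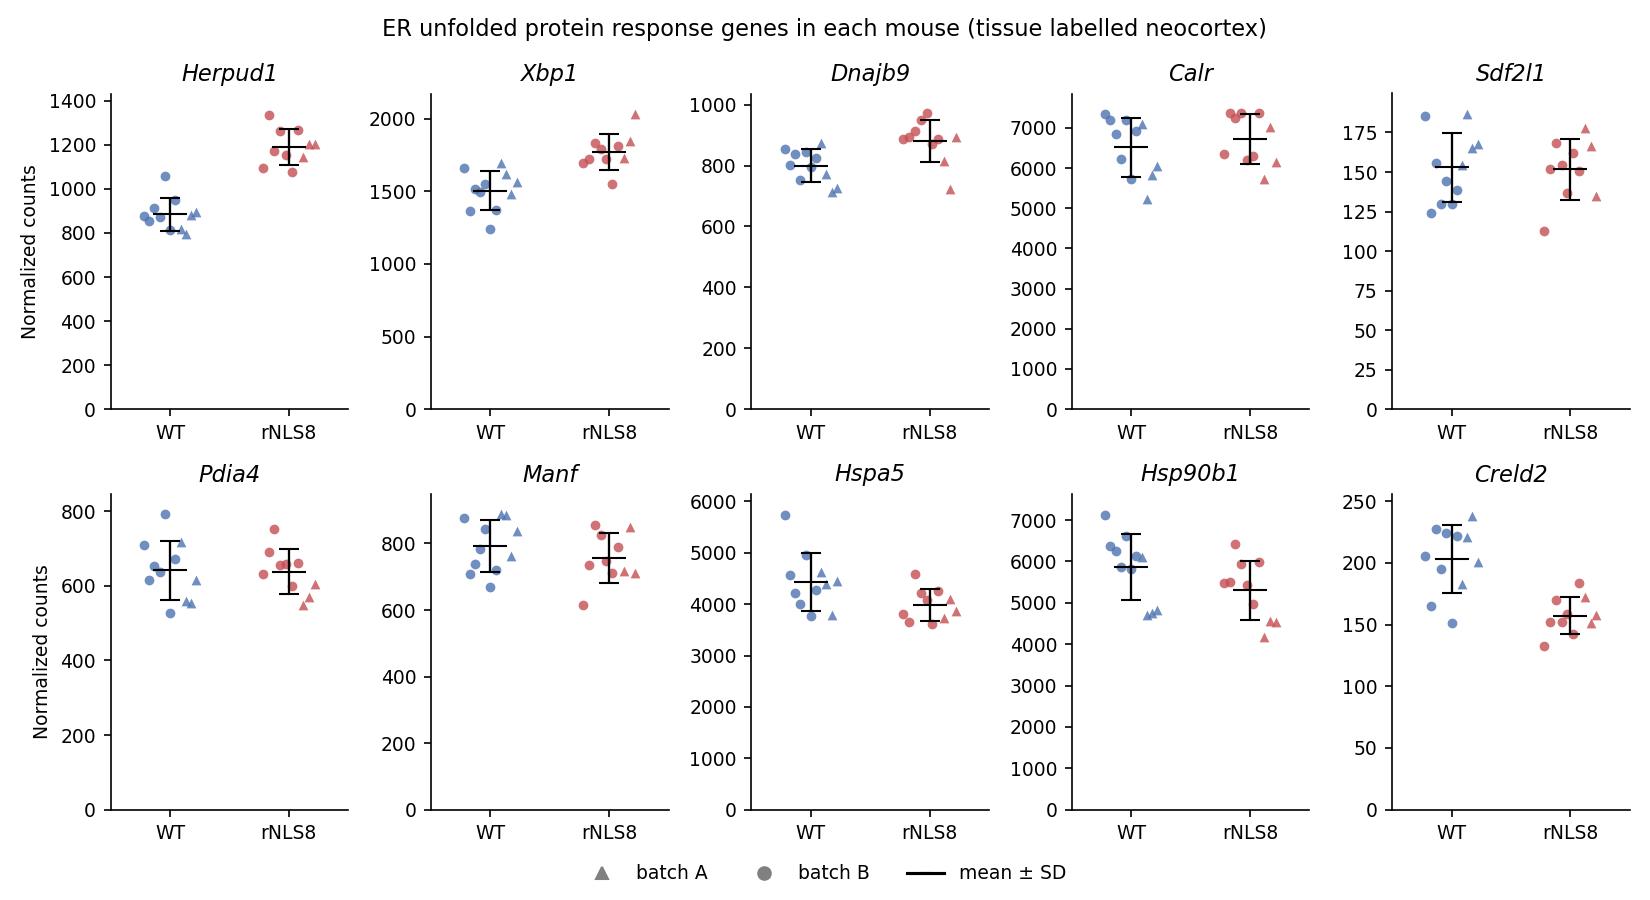
Normalized counts (y axis, from 0) of the 10 genes in each mouse, with WT in blue, rNLS8 in red, triangles for batch A and circles for batch B; bars give mean ± SD (n = 11 WT, 10 rNLS8). The groups are separate for Herpud1, with WT at 793 to 1058 and rNLS8 at 1075 to 1338, and overlap for the other 9 genes.

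Herpud1 encodes a membrane protein with a ubiquitin-like domain that helps to assemble the HRD1 complex for ER-associated degradation. It lies on the plus strand of chromosome 8 at 94386438 to 94395377 (GRCm38, GENCODE M21, as for all positions here). It ranged from 793 to 1058 normalized counts (median 878) in WT and from 1075 to 1338 (median 1188) in rNLS8 mice. Every rNLS8 mouse was thus above every WT mouse, a separation found in 7.65% of all rows in either direction. The mean was 884 ± 73.4 (SD, n = 11) in WT and 1192 ± 81.2 (SD, n = 10) in rNLS8 mice. The log2 fold change was 0.43 ± 0.05 (SE), or 1.35-fold, with an edgeR adjusted p of 1.02e-07. It was higher than that of 91.8% of all rows tested.

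Xbp1 encodes the transcription factor whose mRNA is the substrate of IRE1. Its gene is on the plus strand of chromosome 11 at 5520659 to 5525893. Its lowest, median and highest normalized counts were 1242, 1517 and 1695 in WT and 1549, 1762 and 2031 in rNLS8 mice. The groups overlapped, but 8 of 10 rNLS8 mice were above every WT mouse and all 10 were above the WT median. The mean rose from 1506 ± 136 (SD) to 1773 ± 125, a log2 fold change of 0.24 ± 0.05 (SE, edgeR adjusted p = 0.000157).

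Hspa5 encodes BiP, the HSP70 chaperone of the ER, which also holds the sensors inactive. It lies on the plus strand of chromosome 2 at 34771970 to 34777547. Its normalized counts were between 3761 and 5744 (median 4391) in WT and between 3612 and 4585 (median 3978) in rNLS8 mice. Only rNLS8 mouse 3 (batch B) was above the WT median, and 3 rNLS8 mice were below every WT mouse. The highest value by far was that of WT mouse 1 (batch B), with the next WT mouse at 4954. The mean fell from 4434 ± 563 (SD) to 3991 ± 312, a log2 fold change of -0.16 ± 0.06 (SE) with an edgeR adjusted p of 0.0490. This call is marginal. Without WT mouse 1 the difference was -0.11 (adjusted p = 0.108), and DESeq2 with batch gave an adjusted p of 0.0515. The gene passed in 8 of 21 fits that left out a single mouse; it was lost without WT mouse 1, 2, 5, 8, 9 or 11 and without rNLS8 mouse 1, 2, 4, 5, 6, 8 or 10.

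Hsp90b1 encodes GRP94, the HSP90 chaperone of the ER, on the minus strand of chromosome 10 at 86690209 to 86705509. It spanned 4698 to 7120 normalized counts (median 6109) in WT and 4186 to 6419 (median 5461) in rNLS8 mice. Again 1 rNLS8 mouse was above the WT median and 3 were below every WT mouse. Those 3 were the rNLS8 mice of batch A, and the lowest WT mouse was of batch A as well. Levels also differed by batch: WT mice averaged 5095 ± 677 (SD, n = 4) in batch A and 6308 ± 452 (SD, n = 7) in batch B, and rNLS8 mice 4431 ± 212 (n = 3) and 5675 ± 471 (n = 7). The genotype difference was -0.17 ± 0.05 (SE, edgeR adjusted p = 0.0114). It passed in all 21 fits without a single mouse. Without batch in the model the adjusted p was 0.161 in edgeR and 0.186 in DESeq2, and with library size as the only scaling the difference was -0.09 (edgeR adjusted p = 0.150). The exons overlap by 415 bp, or 10.3% of their length, with a transcribed pseudogene on the opposite strand, 1810014B01Rik. Whether counting used strand is not given in the sources used here.

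Calr encodes calreticulin, the soluble calcium-binding lectin chaperone of glycoproteins, and is on the minus strand of chromosome 8 at 84841850 to 84846934. It ran from 5239 to 7344 normalized counts (median 6859) in WT and from 5733 to 7376 (median 6688) in rNLS8 mice. The ranges overlapped almost completely. The difference of 0.03 ± 0.06 (SE, edgeR adjusted p = 0.656) had a 95% interval of -0.08 to 0.15.

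Dnajb9 encodes ERdj4, a J-domain co-chaperone of BiP, on the minus strand of chromosome 12 at 44205559 to 44210326. Its lowest, median and highest normalized counts were 713, 802 and 874 in WT and 722, 891 and 974 in rNLS8 mice. In rNLS8 mice 7 of 10 were above every WT mouse and 9 above the WT median, while rNLS8 mouse 9 (batch A) had the value of 722. The mean was 799.6 ± 53.6 (SD) in WT and 881 ± 70.3 in rNLS8 mice, which is a log2 difference of 0.13 ± 0.04 (SE, edgeR adjusted p = 0.0180). Sdf2l1, which encodes a small ER protein that binds the co-chaperone ERdj3, is on the minus strand of chromosome 16 at 17130138 to 17132383. It ranged from 124 to 186 normalized counts (median 154) in WT and from 113 to 178 (median 153) in rNLS8 mice. The groups overlapped throughout, and the difference was 0.00 ± 0.08 (SE, edgeR adjusted p = 0.992) with a 95% interval of -0.17 to 0.17.

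Creld2 encodes a small ER protein with disulfide isomerase activity that is also secreted, on the plus strand of chromosome 15 at 88819646 to 88826683. It had 151 to 238 normalized counts (median 206) in WT and 132 to 184 (median 155) in rNLS8 mice. No rNLS8 mouse reached the WT median and 2 were below every WT mouse, though the ranges overlapped. The mean fell from 203 ± 27.6 (SD) to 157 ± 14.95, a log2 fold change of -0.36 ± 0.08 (SE) or a ratio of 0.778, with an edgeR adjusted p of 0.000519. With a mean of 181 counts per mouse, counting error alone gives a coefficient of variation of 7.44%, beside a measured 13.6% among WT mice. Pdia4 encodes ERp72, a protein disulfide isomerase, on the minus strand of chromosome 6 at 47796141 to 47813430. Its normalized counts lay between 527 and 792 (median 637) in WT and between 547 and 753 (median 644) in rNLS8 mice. The rNLS8 mice all lay inside the WT range, and the difference was -0.02 ± 0.06 (SE, edgeR adjusted p = 0.821) with a 95% interval of -0.15 to 0.11.

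Manf encodes a BiP-binding factor of the ER that can be secreted and protects neurons under ER stress. It lies on the minus strand of chromosome 9 at 106838312 to 106891979. It spanned 671 to 890 normalized counts (median 784) in WT and 614 to 855 (median 742) in rNLS8 mice. The groups overlapped, with 4 rNLS8 mice above the WT median. The difference was -0.06 ± 0.06 (SE, edgeR adjusted p = 0.432), with a 95% interval of -0.19 to 0.06.

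The promoters were read next because ATF6 and XBP1 act through known elements. These are the ER stress response element ERSE (CCAAT, then 9 bases of any kind, then CCACG), ERSE-II (ATTGG, 1 base, CCACG) and the unfolded protein response element UPRE (TGACGTGG). CARE (TGATGCAA), an element bound by C/EBP-ATF dimers that contain ATF4, was added after the values were seen. RefSeq windows from 250 bases before to 50 after the start were searched on both strands for exact matches, and 9 of the 10 genes had a window (all but Manf). ERSE and ERSE-II share the letters CCACG, which alone occur in 32.8% of the 32851 windows. ERSE occurred in 4 of the 9 genes and in 0.119% of all windows. The genes were taken partly as known targets of ATF6 and XBP1, so this contrast is no independent result. The following sequences show the 220 bases before the RefSeq start (GRCm38.p6) of the 5 genes with a match. Capitals mark the conserved ends of ERSE and ERSE-II on either strand and, in Herpud1, also CARE. The windows are chr2:34771870-34772089 (plus strand) for Hspa5, chr10:86705445-86705664 (minus) for Hsp90b1, chr8:84846932-84847151 (minus) for Calr, chr15:88819426-88819645 (plus) for Creld2 and chr8:94386209-94386428 (plus) for Herpud1.
Hspa5: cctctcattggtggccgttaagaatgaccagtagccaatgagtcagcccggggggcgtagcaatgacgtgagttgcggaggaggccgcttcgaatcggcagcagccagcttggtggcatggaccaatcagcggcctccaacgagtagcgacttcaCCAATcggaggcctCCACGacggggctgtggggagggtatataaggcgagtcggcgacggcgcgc
Hsp90b1: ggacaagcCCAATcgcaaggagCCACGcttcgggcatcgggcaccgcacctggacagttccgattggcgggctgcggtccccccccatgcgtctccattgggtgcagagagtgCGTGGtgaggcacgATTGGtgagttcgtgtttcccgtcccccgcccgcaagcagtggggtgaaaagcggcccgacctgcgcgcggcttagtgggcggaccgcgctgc
Calr: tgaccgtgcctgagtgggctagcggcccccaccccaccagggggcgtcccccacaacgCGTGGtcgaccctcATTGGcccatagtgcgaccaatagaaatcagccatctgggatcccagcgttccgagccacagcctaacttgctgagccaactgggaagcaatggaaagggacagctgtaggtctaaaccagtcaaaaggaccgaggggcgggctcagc
Creld2: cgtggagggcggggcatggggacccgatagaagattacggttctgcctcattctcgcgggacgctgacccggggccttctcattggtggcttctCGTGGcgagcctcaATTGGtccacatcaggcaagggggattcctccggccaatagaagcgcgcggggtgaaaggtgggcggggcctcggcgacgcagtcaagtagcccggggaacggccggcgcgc
Herpud1: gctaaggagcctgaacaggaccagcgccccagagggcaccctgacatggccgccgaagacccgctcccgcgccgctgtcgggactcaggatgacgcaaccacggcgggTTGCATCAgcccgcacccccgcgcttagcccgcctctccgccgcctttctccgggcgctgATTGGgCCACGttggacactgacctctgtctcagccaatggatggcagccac

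In Hspa5 the ERSE covered bases 65 to 47 before the start. In Hsp90b1 a forward copy lay at bases 212 to 194 and a reverse copy at 107 to 89. Reverse copies lay at bases 162 to 144 in Calr and at 126 to 108 in Creld2. Of these genes, Hspa5, Hsp90b1 and Creld2 fell and Calr did not pass the test. Herpud1, which rose, had no ERSE but an ERSE-II at bases 52 to 42, found in 0.0365% of all windows, and a reverse CARE at bases 112 to 105, found in 0.895%. UPRE was in none of the 9 windows and in 0.676% of all. Xbp1, Dnajb9, Pdia4 and Sdf2l1 held none of the 4 elements as spelled here. A match is a description of the letters in the window and does not show binding.

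Within each batch the direction was the same for every called gene, as shown in the plot of genotype effects by batch. For Herpud1 the log2 fold change was 0.51 in batch A (edgeR adjusted p = 0.00804) and 0.39 in batch B (4.26e-05). For Xbp1 it was 0.26 (0.120) and 0.24 (0.00253), and for Dnajb9 0.10 (0.642) and 0.15 (0.00795). Creld2 gave -0.37 in batch A (0.121) and -0.36 in batch B (0.00795). Hsp90b1 gave -0.18 (0.374) and -0.16 (0.0296), and Hspa5 gave -0.12 (0.503) and -0.17 (0.112). In batch A alone 1 of the 10 genes was called, beside 11.8% of all rows, and in batch B alone 5, beside 39.1%. The test of the difference between batches called 0 of 18248 rows (0%) in edgeR, with 1030 at an unadjusted p under 0.05. The lowest unadjusted p among the 10 genes was 0.294, for Manf. No DESeq2 fit of this difference was run.

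**Figure D2:**
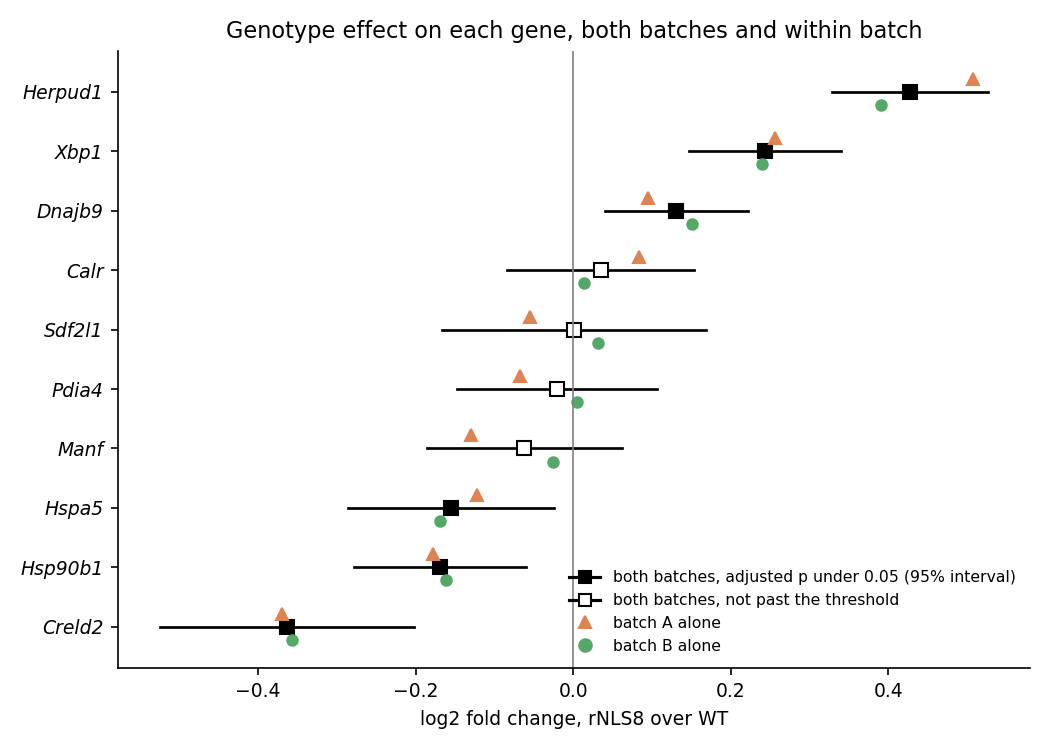
Log2 fold change of rNLS8 over WT (x axis) for each of the 10 genes (y axis), with squares for the fit over both batches, bars for its 95% interval, filled squares for an adjusted p under 0.05, and triangles and circles for batch A and batch B alone. The values run from 0.43 for Herpud1 to -0.36 for Creld2, and the batches differ in sign only for Pdia4 and Sdf2l1, which were not called.

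The samples were bulk tissue, in which fewer cells of a type and less RNA per cell cannot be told apart. The marker counts that follow stand beside 23% of all rows higher and 21.7% lower. Of 8 pan-neuronal markers 5 fell, none rose and 3 did not pass. The groups did not overlap for 2 of the 8, beside 7.65% of all rows. The summed level of the 8 was 127015 to 160351 normalized counts in WT and 89494 to 114715 in rNLS8 mice, without overlap. This sum is weighted to the markers with the most counts. Inhibitory neuron markers fell in 6 of 6. Astrocyte markers fell in 5 of 8, with 1 higher, Gfap, at a log2 fold change of 1.03. Their sum was 106607 to 134077 in WT and 94523 to 119151 in rNLS8 mice. Microglia markers rose in 5 of 8 and fell in 1, with a sum of 5168 to 6030 in WT and 5224 to 7409 in rNLS8 mice. Oligodendrocyte, meningeal and choroid plexus markers had no call in either direction, and 1 of 8 endothelial and mural markers fell. The choroid plexus sum varied from 5018 to 74604 in WT and from 4500 to 35915 in rNLS8 mice. Of 8 markers of B and plasma cells, which are rich in ER chaperones, 7 had too few counts to be tested, at most 16 in any mouse, and Ighm fell. No marker was at 0 in all mice. The part of these shifts in the results for the 10 genes was not tested.

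Inside each library, the ratio of Herpud1 to 4 of the other 9 genes did not overlap between genotypes. The ratio of its raw counts to those of Hspa5, which no scaling affects, was 0.153 to 0.233 in WT and 0.256 to 0.366 in rNLS8 mice. Its ratio to Creld2 was 3.59 to 5.39 in WT and 6.66 to 8.79 in rNLS8 mice. Its ratios to Calr (0.115 to 0.152 against 0.161 to 0.200) and to Manf (0.894 to 1.32 against 1.37 to 1.82) did not overlap either, while those to Hsp90b1, Xbp1, Dnajb9, Pdia4 and Sdf2l1 did. Herpud1 alone already separated the genotypes, and the share of all rows with such a ratio to it was not computed. Herpud1 was taken as numerator after its values were seen, so these ratios carry no test.

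Levels were compared between genes only per length. In WT mice Calr was the most abundant at 2262 ± 252 normalized counts per kilobase of merged exons (SD, n = 11), followed by Hsp90b1 at 1455 ± 198 and Hspa5 at 1048 ± 133. Xbp1 (464 ± 41.9), Herpud1 (379 ± 31.4), Dnajb9 (314 ± 21.04) and Pdia4 (267 ± 33.1) formed the middle of the order. Manf (225 ± 22.2), Creld2 (149 ± 20.2) and Sdf2l1 (138 ± 19.6) were lowest per kilobase. Among neighbours in this order, the WT ranges were separate only between Calr and Hsp90b1, between Hspa5 and Xbp1, and between Manf and Creld2. In rNLS8 mice Xbp1 averaged 546 ± 38.6 per kilobase, Herpud1 511 ± 34.8 and Creld2 115 ± 10.9. The Manf gene model reaches into Dcaf1 and 4930524O07Rik on the opposite strand, with 146 bp and 166 bp of shared exon, so its length and counts are uncertain.

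To ask whether mice with more Hspa5 also had more of the other genes, log2 CPM values (counts scaled to library size, with TMM) were centred on the batch mean and correlated within each genotype. All 18 coefficients were positive. In WT mice (n = 11) the median Pearson r was 0.659, from 0.163 for Creld2 to 0.830 for Manf. In rNLS8 mice (n = 10) the median was 0.546, from 0.077 for Dnajb9 to 0.890 for Hsp90b1. After Benjamini-Hochberg adjustment over the 18 permutation tests, 3 passed by Pearson r. These were Hsp90b1 in rNLS8 mice (rho = 0.842, permutation p = 0.00268 for r and 0.00914 for rho) and, in WT mice, Manf (rho = 0.809, p = 0.00424 and 0.00775) and Hsp90b1 (r = 0.737, rho = 0.791, p = 0.00362 and 0.00861). Each had an adjusted p of 0.0254 for r and 0.0329 for rho. Without the 2 mice farthest from the Hspa5 median these became 0.745, 0.637 and 0.613. By Spearman rho 4 pairs passed in WT and 2 in rNLS8 mice. Herpud1 was among the genes least tied to Hspa5, with r = 0.222 in WT (rho = 0.309) and 0.226 in rNLS8 mice (rho = 0.406), each with an adjusted permutation p of 0.672 for r. Without the 2 farthest mice r turned negative for Creld2 in WT (-0.35) and for Dnajb9 (-0.07) and Pdia4 (-0.04) in rNLS8 mice.

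**Figure D3:**
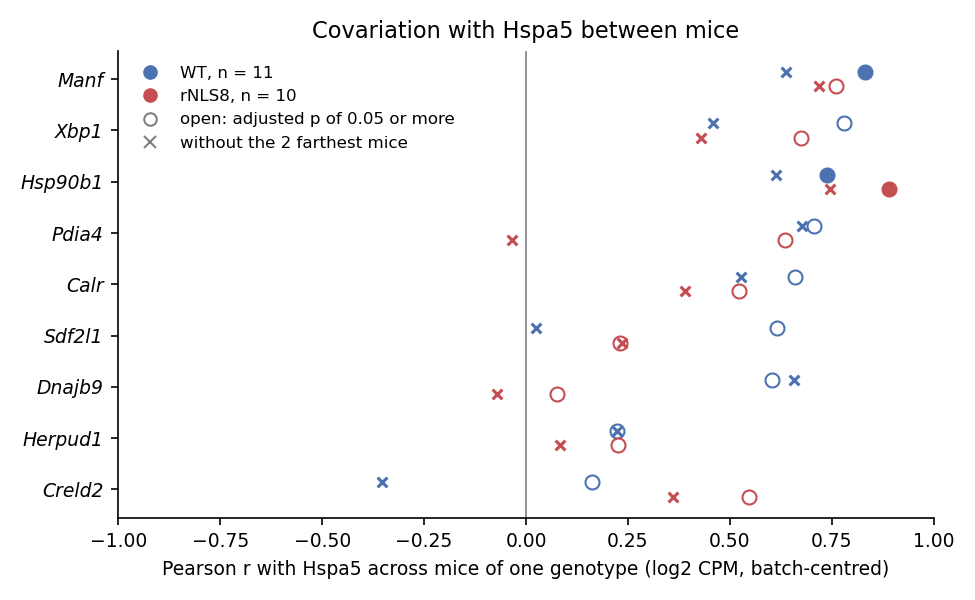
Pearson r with Hspa5 (x axis) of each other gene (y axis) over WT (blue, n = 11) and rNLS8 mice (red, n = 10) from batch-centred log2 CPM; filled circles have an adjusted permutation p under 0.05, and crosses leave out the 2 mice farthest from the Hspa5 median. All 18 circles are right of 0, with Hsp90b1 in rNLS8 mice highest at 0.890, and 3 crosses are left of it.

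Among 13818 genes compared over all 21 mice, with values centred on each genotype and batch, those most like Hspa5 were Dnaja1 (r = 0.807), a cytosolic J-domain co-chaperone, Usp27x (0.795), Dstn (0.792), an actin-depolymerizing factor, Hsp90b1 (0.780) and Gm11847 (0.775), an annotated processed pseudogene. The median over all these genes was 0.042. Manf was 7th, Xbp1 9th and Herpud1 3787th by this measure. The first 20 genes held Hsp90b1, Manf and Xbp1 of the 10 genes and, of the lists described next, Pdia6 and Pdia3. The points share a library each, and these coefficients are given without a test.

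The rest of the pathway was described with lists of genes by role, to be read beside the 23% of all rows that were higher and the 21.7% that were lower. Of 13 targets of the PERK and ATF4 arm, 10 rose and none fell, with a median log2 fold change of 0.73, beside a median of 0.00 over all rows tested. Atf3, a stress-induced transcription factor, rose from 18.3 ± 6.91 (SD, n = 11) to 117 ± 57.2 (n = 10) normalized counts, a log2 fold change of 2.63 ± 0.23 (SE, edgeR adjusted p = 2.35e-09). Chac1, which degrades glutathione, rose from 169 ± 31.3 to 526 ± 104 (1.65 ± 0.09, adjusted p = 1.38e-12). Sesn2, which restrains mTORC1, rose from 259.9 ± 30.0 to 609.8 ± 137 (1.24 ± 0.07, adjusted p = 3.75e-12). In this list 7 of 13 genes did not overlap between groups, these 3 among them, beside 7.65% of all rows. ATF4 is also induced through eIF2α kinases that do not sense the ER.

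Of 10 sensors, activating proteases and related membrane-bound factors, 5 rose and 2 fell (median 0.05). Creb3l1 and Creb3l2, relatives of ATF6 that are also cut in the Golgi, rose by a log2 fold change of 0.64 ± 0.10 (SE, edgeR adjusted p = 1.84e-05) and 0.33 ± 0.07 (0.000327). Eif2ak3, the gene of PERK, rose by 0.21 ± 0.04 (0.000282). Atf6 itself fell by 0.19 (0.0106) and Mbtps2, the site-2 protease that cuts it, by 0.20 (0.00977). Ern1, the gene of IRE1α, stood at 0.02 (0.897).

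ER-associated degradation, which returns misfolded proteins to the proteasome, had 10 of 20 genes higher and 3 lower (median 0.14). Ufd1, a cofactor of the VCP segregase, rose by a log2 fold change of 0.52 ± 0.05 (SE, edgeR adjusted p = 2.63e-09), though the table has a further row of this gene. Os9, a lectin that selects glycoproteins for degradation, rose by 0.44 ± 0.05 (4.01e-07), and Syvn1, the ubiquitin ligase HRD1 to which Herpud1 binds, by 0.38 ± 0.05 (2.49e-06). The groups did not overlap for 5 of the 20 genes, these 3 among them, beside 7.65% of all rows.

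Among 16 other chaperones and lectins tested, 6 rose and 1 fell (median 0.07). Fkbp7, a prolyl isomerase, rose by 0.67 ± 0.13 on the log2 scale (SE, edgeR adjusted p = 0.000150), Mesd, a chaperone of LDL receptor relatives, by 0.27 ± 0.04 (2.19e-05), and Cnpy3, a chaperone of Toll-like receptors, by 0.22 ± 0.05 (0.000706). Among 14 other disulfide and redox enzymes 6 rose and 3 fell (median 0.07). Txndc5 rose by 0.34 ± 0.05 (6.20e-06), Tmx1 by 0.27 ± 0.05 (0.000183) and Ero1b, an oxidase of the isomerases, by 0.25 ± 0.06 (0.00148). The isomerases Pdia3 and Pdia6 and the isomerase-like Erp29 fell.

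Of 18 genes of translocation and signal peptide cleavage, 2 rose and 8 fell (median -0.03). Spcs3 and Spcs1, subunits of the signal peptidase, fell by 0.45 (SE 0.04, edgeR adjusted p = 1.04e-08) and 0.31 (SE 0.04, 4.06e-06) on the log2 scale, while Tram1 rose by 0.23 ± 0.06 (0.00212). Of 16 tested genes of ER to Golgi transport, 8 rose and 2 fell (median 0.09). Sec24d, a cargo adaptor of the COPII coat, rose by 0.41 ± 0.06 (6.63e-06), Sec31a, of its outer layer, by 0.24 ± 0.05 (0.000160), and Kdelr1, a receptor that returns ER proteins from the Golgi, by 0.22 ± 0.05 (0.00146). Fkbp2 and Kdelr3 were listed but had too few counts to be tested.

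**Figure D4:**
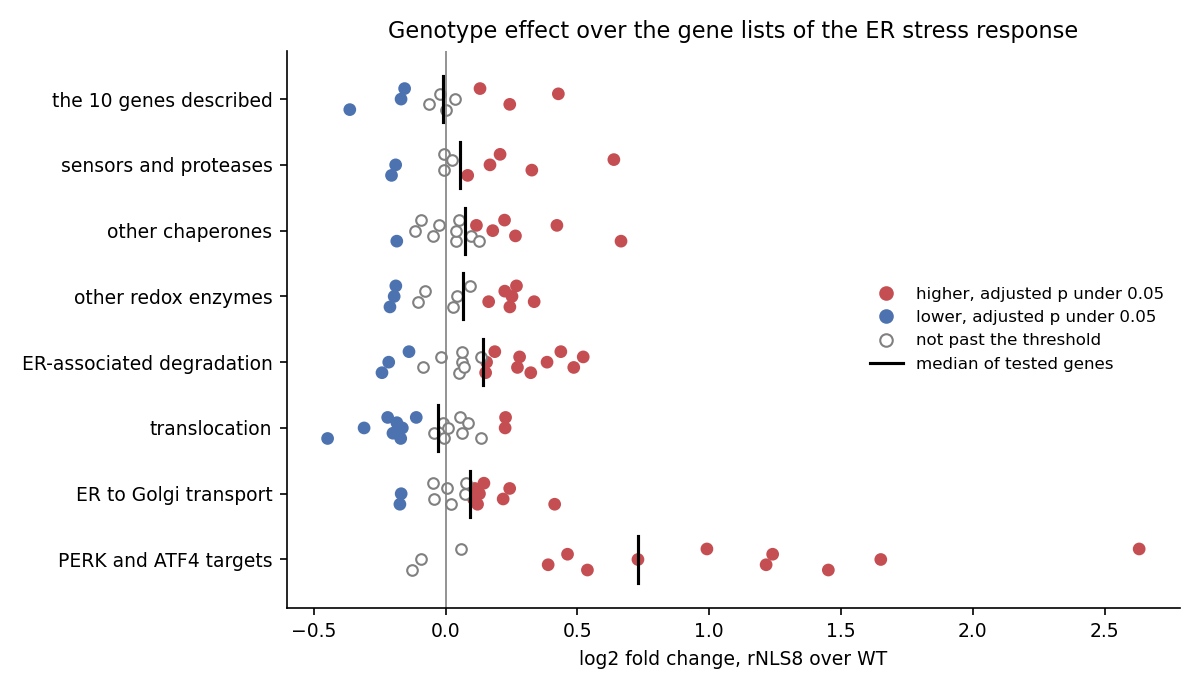
Log2 fold change of rNLS8 over WT (x axis) for every tested gene of the 10 genes described and of 7 lists of the ER stress response (y axis), in red where higher and blue where lower at an adjusted p under 0.05 and open otherwise; vertical bars give each list's median. The median is 0.73 for targets of PERK and ATF4 and between -0.03 and 0.14 for the other lists.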

How the data were processed

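Bulk mRNA libraries of 21 mice, labelled neocortex, were sequenced by the study as 100 bp paired-end reads. The deposited values are raw counts per gene that the authors made from reads on mm10; their processing notes name HISAT, HISAT2, Bowtie, Bowtie2 and RSEM without versions, and which of them made the counts, and with which strand setting, is not given in the sources used here. Groups and batches are from the labels.

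Rows were filtered with filterByExpr (minimum count 10, minimum total 15), scaled by TMM and fitted with genotype and batch by edgeR 4.0.16 (R 4.3.3) over the whole table. The quasi-likelihood test was used, with Benjamini-Hochberg adjustment over all 18248 rows and a threshold of 0.05. Interval bounds are at 95%. Of the 48474 rows, 13329 had no count and 2553 were further copies of a symbol, with 4.11% of counts. Covariation used 100000 permutations of mice within batch (two-sided) on log2 CPM with a prior count of 2. Promoter windows were from RefSeq and exon lengths from GENCODE M21. The fit was tested on simulated data.

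The 10 genes and all lists were chosen with earlier results of these data known. Of each ER list, the text names up to 3 genes with the largest absolute change among those called with a mean of at least 50 counts, and the 5 genes most like Hspa5. Atf6, Mbtps2, Ern1, Erp29, Pdia3, Pdia6, Derl3, Canx, Dnajc3, Hnrnpa3, Slc17a7, Tbr1, Ighm and Gfap were named outside this rule after their values were seen, as were the ratios to Herpud1, CARE and the grouping of all genes by element. Alternatives were DESeq2 1.42.0, no batch term, other scalings and filters, copies left out, the level of Xist as covariate (the labels give no sex), single batches, leaving out each mouse, and leaving out rNLS8 mice 8 and 9 of batch A, which stood apart in earlier results. A marker of the tissue, and the summed level of the list that holds it, are not reported here.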

Additional observations from a re-analysis of the deposited data

How the results depend on the processing

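No called gene changed direction under any alternative. Over all rows the fit called 8154, and 7805 to 8363 when a single mouse was left out, but 2195 in batch A alone. Of the 10 genes, 3 were called lower; this became 1 with DESeq2 without batch, with edgeR without batch and with library size as the only scaling, and 0 in batch A alone. With a single mouse left out it was 2 to 3. The number called higher was 3 in each of these fits but batch A alone, where it was 1. Herpud1 passed in all 21 fits without a single mouse and in all 13 other settings (log2 fold change 0.39 to 0.51 over all of these), and Xbp1, Dnajb9 and Creld2 in all but batch A alone. Hsp90b1 was lost without batch, with library size only (-0.09, adjusted p = 0.150) and in batch A alone. Hspa5 was lost in 9 of 13 settings and 13 of 21 fits without a single mouse. Over these 21 fits its log2 fold change was -0.18 to -0.11 and its edgeR adjusted p 0.0202 to 0.108. Without rNLS8 mice 8 and 9 its adjusted p was 0.0771. Library size as the only scaling gave -0.08 for Hspa5 (edgeR adjusted p = 0.315) and 0.21 instead of 0.13 for Dnajb9. Pdia4, Sdf2l1, Calr and Manf passed in none. With library size only, 67.9% of called rows were higher instead of 51.4%, and the median over all rows moved to 0.08. The test between batches called 0 rows and, with a single mouse left out, 0 to 1 (1 without rNLS8 mouse 8, WT mouse 9 or WT mouse 10). The cause of these changes was not tested. Counting error per mouse was 8.10% for Sdf2l1 and 7.44% for Creld2, beside a spread among WT mice of 14.2% and 13.6%. No paired analysis was possible because replicate numbers only name the mice.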

Other observations

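The same elements were looked up in all tested genes, a grouping made after the data were seen. An ERSE stood in the window of 20 tested genes, of which 6 rose and 6 fell (median log2 fold change -0.07). Besides Hspa5, Hsp90b1 and Creld2, those that fell included Pdia6 (-0.21, edgeR adjusted p = 0.00437), a disulfide isomerase, and Hnrnpa3 (-0.42, adjusted p = 1.11e-08), an RNA-binding protein. Those that rose included the degradation genes Syvn1 (0.38, adjusted p = 2.49e-06) and Derl3 (0.49, adjusted p = 0.0166) and the oxidase Ero1b (0.25, adjusted p = 0.00148). Derl3 had a mean of only 20.9 counts per mouse. The other genes with an ERSE that rose were on none of the ER lists described above. The chaperones Canx (0.04, adjusted p = 0.526) and Dnajc3 (-0.03, adjusted p = 0.719) did not pass. An ERSE-II stood in 9 tested genes, with 6 higher, Herpud1 among these, and none lower (median 0.26). CARE stood in 89 tested genes, with 31 higher and 16 lower (median 0.09), and UPRE in 130, with 35 higher and 34 lower (median 0.00). These are counts without a test, beside 44.7% of all rows called, 23% higher and 21.7% lower. Of tested genes with the letters CCACG in the window 46.4% were called, and of those with CCAAT 46.6%.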
